A study of Mus musculus with 17 samples.

Results

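The 35 genes described here lie to either side of Clic4 on mouse chromosome 4 and were followed in lung tissue of mice with (wild type, WT) and without (knockout, KO) an intact Clic4 gene. They are a fixed list among the 54146 genes of the deposited files, chosen by position, as neighbours that may be carried with the targeted allele, and with the KO against WT log2 differences of these libraries at both days known. All 35 passed the filter on low counts, which left 19557 genes. Because the KO against WT values took part in the choice, they are given as a description and support nothing, and where a count of called genes is printed for them it describes the choice and is no test of it. Tests are reported for the change between days, which the choice did not use.

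Lung RNA was sequenced in 17 libraries from mice labelled FVB/6DT1; 6DT1 names a tumour line from mouse mammary gland. By the labels there were 4 WT and 2 KO libraries at day 0, from mice 6 weeks old, and 6 WT and 5 KO libraries at day 14, from mice 8 weeks old. Day and age therefore changed together and cannot be told apart, and the labels do not say how the animals were treated in between. The series text gives other group sizes, with 5 WT and 6 KO mice for day 0, then 2 WT and 6 KO for day 14; the labels were followed. The labels do not tie libraries to animals, so p-values cover only sample-to-sample spread, which may be technical. The design of the KO allele, the cells in which Clic4 is lost, and the strain in which the allele was made are not given in the sources used here.

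A gene targeted in embryonic stem cells is inherited together with the DNA around it. When such an allele is bred into another strain, neighbouring genes can keep the sequence variants of the original strain for many generations, and the length of that stretch depends on where recombination happened. Such neighbours are commonly called passenger genes, and they are known to differ between KO and WT mice in many knockout lines. DNA was not measured in these files, so the strain origin of this stretch was not tested.

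The libraries held 20607811 to 35743830 counts. Clic4, which encodes a chloride intracellular channel protein, lies at chr4:135213969-135272814 on the minus strand (GRCm38). It ran from 925 to 953 CPM (counts scaled by TMM to a total of 1000000) in WT and from 324 to 327 CPM in KO at day 0, and from 927 to 1281 CPM in WT and from 301 to 399 CPM in KO at day 14. Every KO library lay below every WT library, and Clic4 counts remained in KO, at 34.5% of WT at day 0 and 32.2% at day 14. Alveolar type 2 markers such as Sftpc summed to 17310 to 21520 CPM in WT and 22340 to 25130 CPM in KO at day 0, where 8 of 8 were higher in KO (median log2 0.24), and to 17690 to 20990 CPM and 17550 to 21910 CPM at day 14. Type 2 markers were not alone in this. At day 0, 7 of 7 alveolar macrophage (median 0.33), 6 of 7 adipose (0.97) and 5 of 7 fibroblast markers (0.16) were also higher in KO. Lower in KO were 6 of 7 endothelium (-0.15) and 5 of 6 alveolar type 1 markers (-0.07). None of these markers was called at day 0. In bulk tissue, fewer cells of a type and less RNA per cell cannot be told apart.

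By position, 17 of the 35 genes lay before Clic4 (lower coordinates) and 18 after it. The nearest were Runx3, ending 36.0 kb before Clic4, and Srrm1, starting 47.7 kb after it, and the outermost were Tmem222, 1.94 Mb before, and Zfp46, 1.01 Mb after. The genes are not evenly spaced. Several pairs almost touch: 527 bases separate Cnr2 from Fuca1, 763 separate Paqr7 from Aunip, and 1009 separate the convergent genes Srsf10 and Pnrc2. Nipal3 and Stpg1 overlap on opposite strands and share 228 exon bases, which are 3.0% of the exon bases of Nipal3 and 7.5% of those of Stpg1. Whether counting used the strand is not stated, so reads in that overlap could be assigned to either gene.

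The promoter windows of 6 genes are shown because these genes differed between every KO and every WT library at both days, 4 of them higher in KO and 2 lower. Each window runs from 250 bases before to 50 after a RefSeq start site in GRCm38.p6, the C57BL/6J reference and not FVB, printed 5′ to 3′ on the gene's strand. Capitals mark the GC box GGGCGG and the CCAAT box, each on either strand. The windows of Slc30a2 and of the downstream start of Zfp46 lie inside the genes as annotated here, which start at 134343181 and 136284683. The windows are chr4:133277741-133278040 (minus) for Tmem222, chr4:134343216-134343515 (plus) for Slc30a2, chr4:134552117-134552416 (minus) for Selenon, chr4:135873797-135874096 (minus) for Pnrc2, chr4:136206115-136206414 (plus) for Asap3, and chr4:136284426-136284725 and chr4:136285817-136286116 (plus) for the 2 start sites of Zfp46.
Tmem222: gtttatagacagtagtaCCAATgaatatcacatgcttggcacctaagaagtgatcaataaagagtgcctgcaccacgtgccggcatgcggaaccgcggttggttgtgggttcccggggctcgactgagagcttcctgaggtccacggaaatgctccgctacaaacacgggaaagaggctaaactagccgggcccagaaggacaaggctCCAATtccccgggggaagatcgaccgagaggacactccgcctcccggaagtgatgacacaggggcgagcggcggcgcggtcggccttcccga
Slc30a2: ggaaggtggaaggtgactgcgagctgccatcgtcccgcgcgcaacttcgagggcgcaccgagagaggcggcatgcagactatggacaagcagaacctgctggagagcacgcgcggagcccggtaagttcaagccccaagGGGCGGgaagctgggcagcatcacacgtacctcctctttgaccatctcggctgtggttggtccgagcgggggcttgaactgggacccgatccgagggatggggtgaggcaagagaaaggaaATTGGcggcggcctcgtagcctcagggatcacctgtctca
Selenon: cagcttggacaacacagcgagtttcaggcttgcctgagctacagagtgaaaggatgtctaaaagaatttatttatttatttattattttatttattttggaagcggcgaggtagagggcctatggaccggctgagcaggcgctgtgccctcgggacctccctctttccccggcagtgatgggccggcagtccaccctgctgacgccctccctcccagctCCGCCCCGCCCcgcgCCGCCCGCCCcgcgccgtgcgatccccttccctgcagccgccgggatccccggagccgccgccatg
Pnrc2: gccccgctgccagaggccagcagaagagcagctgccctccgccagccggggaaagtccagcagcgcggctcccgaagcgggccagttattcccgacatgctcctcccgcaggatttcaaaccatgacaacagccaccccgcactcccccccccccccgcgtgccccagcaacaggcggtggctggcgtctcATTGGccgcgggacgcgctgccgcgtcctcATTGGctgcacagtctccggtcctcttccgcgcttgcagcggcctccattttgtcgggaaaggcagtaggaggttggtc
Asap3: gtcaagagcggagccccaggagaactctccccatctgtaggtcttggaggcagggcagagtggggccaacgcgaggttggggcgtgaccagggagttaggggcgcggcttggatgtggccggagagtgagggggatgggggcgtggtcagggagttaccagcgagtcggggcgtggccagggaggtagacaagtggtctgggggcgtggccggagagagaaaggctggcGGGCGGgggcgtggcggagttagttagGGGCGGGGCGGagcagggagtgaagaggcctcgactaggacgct
Zfp46 (upstream start): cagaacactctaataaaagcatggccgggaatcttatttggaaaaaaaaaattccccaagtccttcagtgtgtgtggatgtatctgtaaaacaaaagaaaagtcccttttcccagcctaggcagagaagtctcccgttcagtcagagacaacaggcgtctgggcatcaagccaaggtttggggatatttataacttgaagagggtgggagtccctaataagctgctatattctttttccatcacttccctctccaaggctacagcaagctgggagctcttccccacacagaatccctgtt
Zfp46 (downstream start): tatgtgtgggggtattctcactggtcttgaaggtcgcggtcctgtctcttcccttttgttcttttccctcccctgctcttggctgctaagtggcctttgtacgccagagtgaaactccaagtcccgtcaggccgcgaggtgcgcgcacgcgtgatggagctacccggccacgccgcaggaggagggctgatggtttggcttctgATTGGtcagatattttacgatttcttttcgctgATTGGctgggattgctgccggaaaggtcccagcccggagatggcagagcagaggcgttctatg

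Among these windows, Selenon held 4 GC boxes and no CCAAT box, Asap3 held 3 GC boxes and 4 copies of the KLF-type motif GGGCGTGG, and Slc30a2 held 1 GC box and 1 CCAAT box. Pnrc2, the second window of Zfp46 and Tmem222 held 2 CCAAT boxes each and no GC box, and the upstream window of Zfp46 held neither, with 3 CG dinucleotides against 18 to 25 in the others. The GC box occurred in 3 of the 4 genes that were higher in KO and in neither of those that were lower. It occurred in 26 of the 33 listed genes with windows, and CCAAT, found on both sides, in 22. The genes shown were picked by their KO against WT values and are few, so no link of motif and direction was tested. Of the 35 genes, 33 had windows in the table, 43 in all; Tmem50a and Stmn1 had none. The GC box was in 28 of the 43 windows (35.7% of all 32851 windows in the table), CCAAT in 24 (37.4%), the KLF-type motif in 7 (5.33%), CGGAAG in 9 (16.9%), TATAAA in 3 (13.6%) and CACGTG in 2 (7.15%). Motifs were searched on both strands; none of these contains another, though neighbouring matches can overlap. The median window of the list held 19 CG dinucleotides and 61.7% GC, against 7 and 52.7% over all windows.

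Selenon (ENSMUSG00000050989.9, chr4:134537892-134552166, minus strand) encodes selenoprotein N, a glycoprotein of the endoplasmic reticulum that is needed in muscle for calcium handling. Its level was 67.4, 68.2, 66.6 and 68.0 CPM in the WT libraries at day 0 and 111 and 95.0 CPM in the KO libraries. At day 14 the 6 WT libraries ran from 63.7 to 70.7 CPM (median 67.0) and the 5 KO libraries read 100.2, 109, 105, 109.8 and 103 CPM. No KO library came within the WT range at either day, and the WT libraries hardly varied. KO stood at 153% of WT at day 0 (log2 difference 0.61, SE 0.06) and at 156% at day 14 (0.64, SE 0.05).

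Slc30a2 (ENSMUSG00000028836.14, chr4:134343181-134354484, plus strand) encodes the zinc transporter ZnT2, which moves zinc into vesicles and is best known from mammary gland. Its level was 0.481, 0.609, 0.779 and 0.681 CPM in WT and 2.33 and 1.34 CPM in KO at day 0. The WT libraries of day 14 ran from 0.365 to 0.883 CPM (median 0.565), and KO read 1.52, 1.29, 1.47, 2.02 and 1.73 CPM. This was the scarcest of the 6 genes and the one with the largest ratio, with KO at 288% of WT at day 0 (log2 1.53, SE 0.30) and 271% at day 14 (1.44, SE 0.22). The highest WT library, replicate 6 at day 14, still lay below the lowest KO library.

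Asap3 (ENSMUSG00000036995.7, chr4:136206365-136245216, plus strand) encodes a GTPase-activating protein for Arf GTPases, which act in membrane traffic and the cytoskeleton. It read 13.9, 14.7, 12.02 and 12.3 CPM in WT and 21.1 and 24.2 CPM in KO at day 0. On day 14 its WT libraries ran from 12.4 to 15.7 CPM (median 14.2), and KO read 23.4, 29.4, 20.6, 19.2 and 16.3 CPM. The KO libraries spread far more widely than the WT libraries at day 14, and KO replicate 5 lay just above the highest WT library. The log2 difference was 0.77 (SE 0.17) at day 0 and 0.63 (SE 0.12) at day 14.

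Tmem222 (ENSMUSG00000028857.16, chr4:133266045-133277792, minus strand), a transmembrane protein gene and the member farthest from Clic4, read 18.6, 19.9, 19.9 and 19.6 CPM in WT and 21.4 and 23.6 CPM in KO at day 0. At day 14 WT ran from 18.5 to 20.5 CPM (median 18.7) and KO read 26.2, 24.8, 20.8, 27.5 and 23.1 CPM. KO replicate 3 was the lowest of the KO libraries and lay just above the highest WT library. The log2 difference was 0.21 (SE 0.09) at day 0 and 0.36 (SE 0.07) at day 14.

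The genes that were lower in KO both lay after Clic4. Pnrc2 (ENSMUSG00000028675.12, chr4:135870918-135873850, minus strand) encodes a nuclear receptor coactivator that also links mRNA decapping with nonsense-mediated decay. It read 76.2, 80.7, 82.5 and 91.7 CPM in WT and 51.8 and 52.0 CPM in KO at day 0. At day 14 WT ran from 72.5 to 93.8 CPM (median 81.9) and KO read 43.8, 55.0, 52.7, 58.5 and 49.3 CPM. The gap between the lowest WT and the highest KO library was wide at both days, and KO stood at 62.7% of WT at day 0 (log2 -0.67, SE 0.11) and 62.3% at day 14 (-0.68, SE 0.08).

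The authors' own FPKM values (fragments scaled for transcript length and depth) gave a smaller difference for Pnrc2 at day 14. WT averaged 56.2 ± 7.19 FPKM (SD, n = 6) and KO 46.7 ± 9.16 FPKM (SD, n = 5), and the highest KO library, at 61.3 FPKM, lay inside the WT range of 47.4 to 64.4 FPKM. On the log2(FPKM + 1) scale the difference was -0.27 in place of -0.68. At day 0 the FPKM of Pnrc2 were 58.8 ± 6.84 (SD, n = 4) in WT and 40.1 ± 9.07 (SD, n = 2) in KO.

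Zfp46 (ENSMUSG00000051351.14, chr4:136284683-136293942, plus strand) encodes a zinc finger protein. It read 35.3, 37.8, 39.0 and 36.1 CPM in WT and 25.7 and 23.3 CPM in KO at day 0. At day 14 WT ran from 33.9 to 45.8 CPM (median 40.0) and KO read 28.2, 27.6, 25.0, 27.7 and 21.3 CPM. The groups did not overlap at either day, and the FPKM of Zfp46 gave the same picture, with 12.8 ± 1.31 (SD, n = 6) in WT and 8.33 ± 1.05 (SD, n = 5) in KO at day 14. The log2 difference from the counts was -0.60 (SE 0.11) at day 0 and -0.62 (SE 0.08) at day 14.

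**Figure D1:**
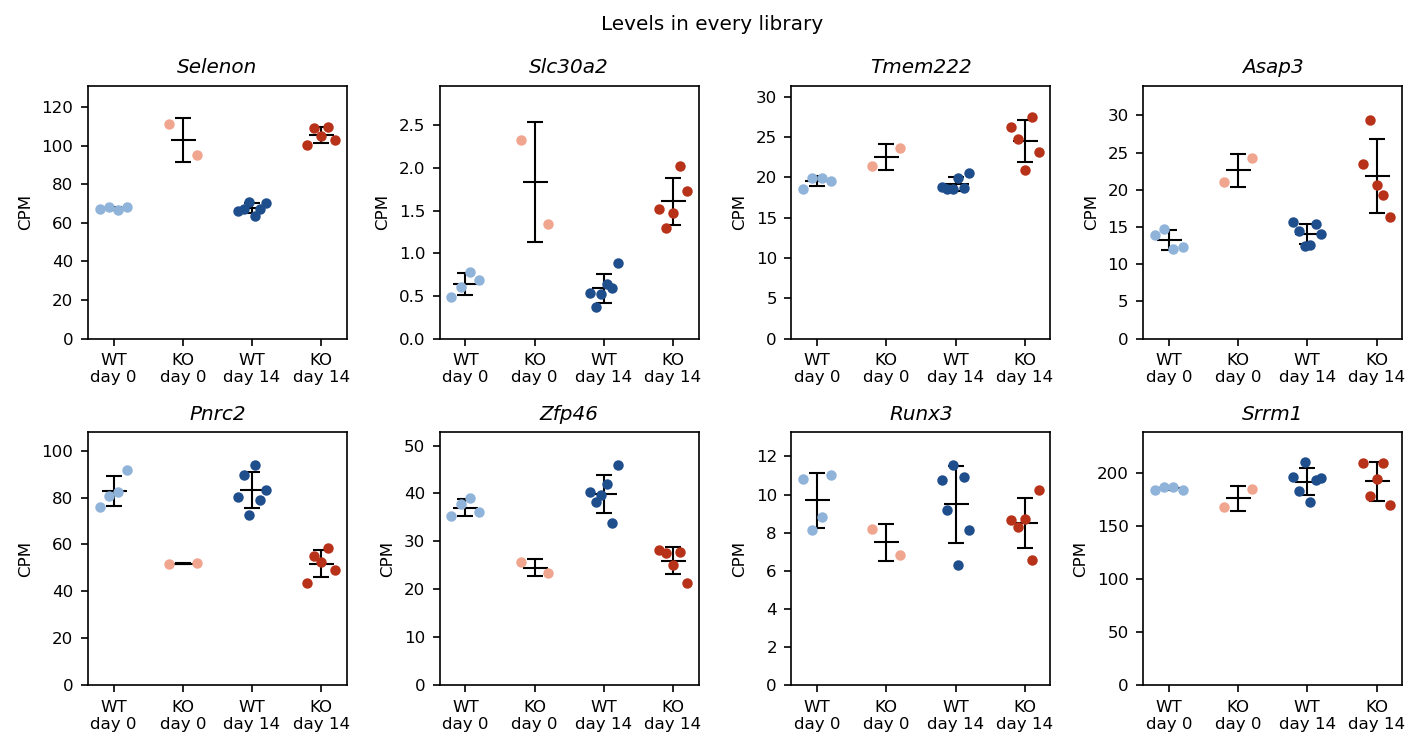
Level of 8 genes in each of the 17 libraries, in CPM on linear axes that start at 0, with 1 point per library and bars for the group mean ± SD. Selenon, Slc30a2, Tmem222 and Asap3 lie above, and Pnrc2 and Zfp46 below, all WT libraries of the same day in each KO library, while the KO and WT libraries of Runx3 and Srrm1 overlap.

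The plot of levels by library also shows the neighbours closest to Clic4 on each side. Runx3 (chr4:135120652-135177990, plus strand) encodes a transcription factor of cytotoxic lymphocytes. It read 10.8, 8.13, 8.80 and 11.03 CPM in WT and 8.19 and 6.81 CPM in KO at day 0. In the day 14 libraries WT ran from 6.27 to 11.6 CPM (median 9.98) and KO read 8.66, 8.29, 8.71, 6.56 and 10.2 CPM. The groups overlapped at both days, with log2 differences of -0.37 (SE 0.22) and -0.16 (SE 0.15).

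Srrm1 (chr4:135320484-135353321, minus strand) encodes a splicing coactivator of the SR family. It read 184.0, 187, 187 and 184.0 CPM in WT and 168 and 184 CPM in KO at day 0. At day 14 WT ran from 173 to 210.1 CPM (median 194) and KO read 209, 178, 194, 209 and 169 CPM. The groups overlapped, with a log2 difference of -0.07 (SE 0.09) at day 0 and 0.00 (SE 0.06) at day 14.

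With an adjusted p under 0.05 by edgeR's quasi-likelihood test over all 19557 genes as the mark, 2 of the 35 genes were called KO against WT at day 0, where 0.0256% of all genes were called. Selenon was the 1 called higher (0.0102% of all genes) and Pnrc2 the 1 called lower (0.0153%). At day 14, 6 were called, those shown above, where 0.107% of all genes were called: 4 higher (0.0665%) and 2 lower (0.0409%). DESeq2 called 5 at day 0 (0.133% of all genes) and 8 at day 14 (0.557%), and limma-voom 1 (0.0153%) and 4 (0.0818%). Counted by libraries that do not overlap, 8 of 35 stood apart at day 0, where 18.0% of all genes did, and 10 of 35 at day 14, where 0.977% did. Since the list was chosen with these contrasts known, nothing is read from these counts. The median log2 difference of the list was -0.05 at day 0 and 0.01 at day 14, beside 0.00 over all genes at both days.

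Differences of the list lay at many distances from Clic4. The 15 genes within 0.5 Mb of Clic4 had a median absolute log2 difference of 0.13 at day 0 and 0.12 at day 14 and included none of the 6 called genes. The 20 genes beyond 0.5 Mb had 0.20 and 0.25 and held all 6. Stpg1, 0.22 Mb after Clic4, and Myom3, 0.49 Mb after it, were not called, yet their day 14 differences of -0.71 and -0.69 were larger in size than those of Pnrc2, Selenon, Asap3 and Zfp46. Over all genes tested the medians were 0.12 and 0.09. These numbers describe the listed genes only, since distance and difference both took part in the choice.

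**Figure D2:**
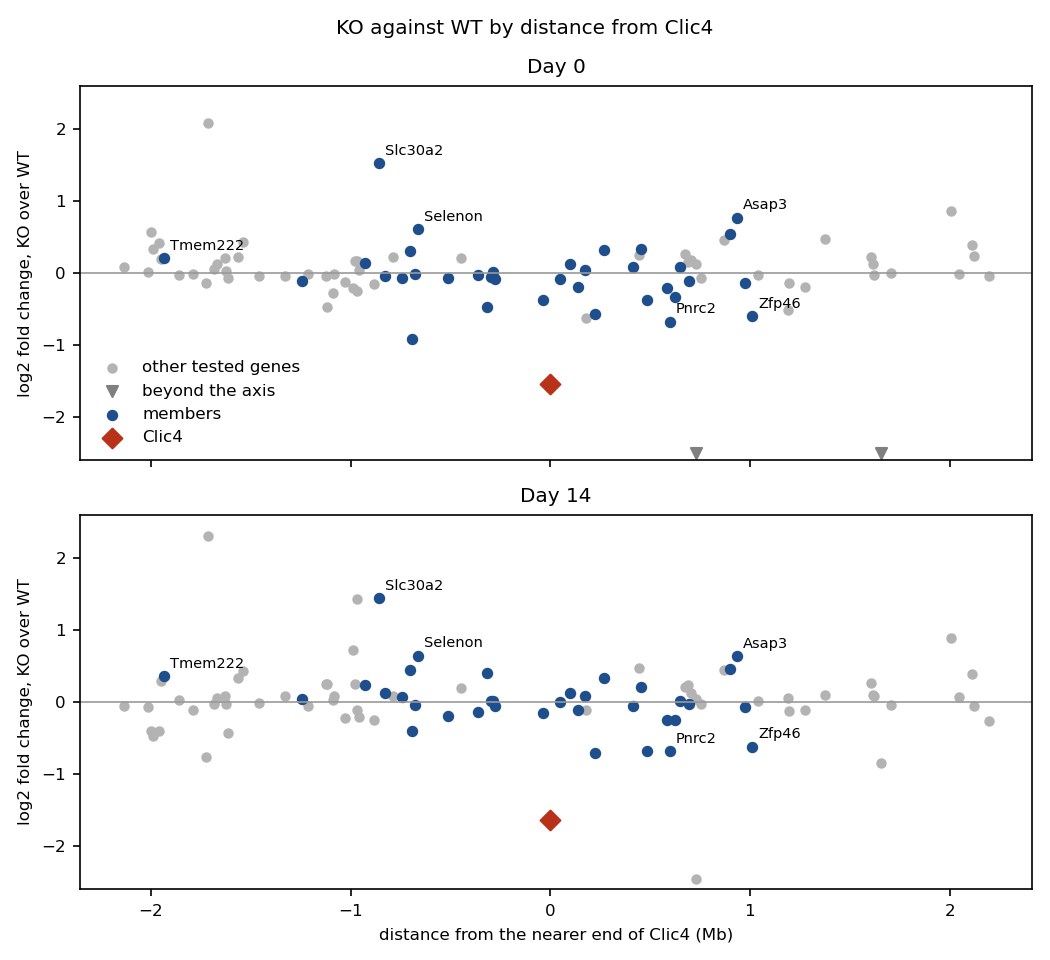
Log2 fold change of KO over WT (y axis) against distance from the nearer end of Clic4 in Mb (x axis, negative before Clic4) for tested genes within about 2 Mb, with day 0 above and day 14 below. Blue points are the 35 listed genes, grey points other tested genes, triangles genes beyond the axis, and the red diamond Clic4; listed genes differ in both directions on both sides, and the 6 labelled genes lie beyond 0.5 Mb.

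The plot by distance shows higher and lower genes side by side. Selenon sits 2504 bases from Mtfr1l, a gene of mitochondrial fission, which read 102 ± 2.34 CPM (SD, n = 4) in WT and 101 ± 5.78 CPM (SD, n = 2) in KO at day 0 and had log2 differences of -0.02 and -0.04. On its other side Man1c1, a Golgi mannosidase that trims N-glycans, had -0.07 and -0.20, and its KO libraries at day 14 (41.0 to 43.5 CPM) all lay below WT (47.4 to 49.98 CPM). Slc30a2 sits 1887 bases from Extl1, a glycosyltransferase gene of the heparan sulfate family, which had -0.04 and 0.13. Asap3 sits 2512 bases from Tcea3, a transcription elongation factor gene, which had -0.13 and -0.07.

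Genes of RNA processing formed a group in the list. Srsf10, a splicing regulator of the SR family and the convergent neighbour of Pnrc2, ran from 112 to 124 CPM in WT and from 93.3 to 105 CPM in KO at day 14, with log2 differences of -0.20 at day 0 and -0.25 at day 14. Its KO libraries at day 0 (89.8 and 114 CPM) overlapped WT (110.0 to 122 CPM). Syf2, a spliceosome component, had -0.08 and -0.06. Rsrp1, an arginine- and serine-rich protein gene and the most abundant of the list at 508 to 590 CPM in the group means, had 0.01 and 0.02.

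Among genes with roles in immune cells, Cnr2, the cannabinoid receptor of leukocytes, had log2 differences of -0.32 and -0.25 and Rcan3, a regulator of calcineurin, had -0.19 and -0.12. The KO libraries of Rcan3 at day 0 (31.0 and 31.7 CPM) lay below WT (34.0 to 38.8 CPM), and those at day 14 overlapped. Markers of lymphocytes are given beside these genes. All 12 T cell, all 10 NK cell and all 10 B cell markers were lower in KO at day 0, with medians of -0.47, -1.12 and -0.95. At day 14, 10 of 12 T cell and 10 of 10 NK cell markers were lower, with medians of -0.06 and -0.62, and 7 of 10 B cell markers were higher, with a median of 0.11. None of these markers was called at either day. The T cell markers summed to 150.1 to 220.2 CPM in WT and 133 to 149.8 CPM in KO at day 0, and to 137 to 234 CPM and 117 to 214 CPM at day 14. The NK cell markers summed to 97.6 to 199 CPM and 39.7 to 78.0 CPM at day 0, and to 72.1 to 213 CPM and 58.1 to 84.9 CPM at day 14. The B cell markers summed to 220.4 to 327 CPM and 107 to 188 CPM at day 0, and to 102 to 288 CPM and 127 to 341 CPM at day 14. No listed marker of these types was at 0 in any library, and their part in these differences was not tested.

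The cytokine receptor chains Ifnlr1, for type III interferon, and Il22ra1, for interleukin 22, lie next to each other and are epithelial genes. Ifnlr1 had log2 differences of 0.09 and -0.05 at 20.6 to 22.1 CPM in the group means. Il22ra1 had 0.34 and 0.20 at 1.28 to 1.61 CPM, with both KO libraries at day 0 inside the WT range. Grhl3, an epithelial transcription factor, had 0.32 and 0.33 at group means of 0.396 to 0.607 CPM, where the SE was 0.39 and 0.26. All 6 airway epithelium markers (medians 0.17 and 0.12) and all 6 tested ciliated cell markers (0.18 and 0.24) were higher in KO at both days. Their summed CPM overlapped between KO and WT at both days. Of 6 alveolar type 1 markers, 5 were lower in KO at day 0 and 6 at day 14. None of these was called, and their part in the values of these genes was not tested.

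Among these genes tied to cell division, only E2f2 had differences well beyond their SE. E2f2, an activator of S phase genes that sits 10307 bases from Asap3, read 16.7, 16.8, 14.8 and 15.5 CPM in WT and 27.0 and 19.6 CPM in KO at day 0. At day 14 WT ran from 12.7 to 22.1 CPM and KO from 19.4 to 30.7 CPM, which overlap; the log2 differences were 0.55 (SE 0.19) and 0.46 (SE 0.13). Stmn1, a microtubule destabiliser, had -0.06 (SE 0.16) and 0.06 (SE 0.11). Hmgn2, a nucleosome-binding protein gene, had -0.11 (SE 0.09) and 0.05 (SE 0.07). Aunip, a mitotic spindle gene at or below 0.538 CPM in every library, had -0.91 (SE 0.74) and -0.40 (SE 0.53). All 12 proliferation markers were lower in KO at day 0, with a median of -0.58, and 8 of 12 at day 14, with a median of -0.03. They summed to 80.8 to 204 CPM in WT and 85.3 to 102 CPM in KO at day 0, and to 89.0 to 174 CPM and 85.5 to 156 CPM at day 14, with none called and none at 0. Their part in the values of these genes was not tested.

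Of the remaining genes, Paqr7, a membrane progestin receptor gene, had log2 differences of 0.31 and 0.44. Its KO libraries at day 14 ran from 90.4 to 126 CPM and its WT libraries from 64.3 to 78.4 CPM apart from replicate 6, at 103 CPM. Stpg1, a sperm tail gene, ran from 0.749 to 1.36 CPM in KO and from 1.49 to 2.41 CPM in WT at day 14 (log2 -0.71, SE 0.22), and overlapped at day 0 (-0.57, SE 0.30). Myom3, a protein of the M-band of striated muscle, ran from 1.25 to 2.52 CPM in KO and from 2.58 to 4.89 CPM in WT at day 14 (-0.69, SE 0.20), and overlapped at day 0 (-0.37, SE 0.28). Striated muscle markers summed to 1139 to 2001 CPM in WT and 876 to 1393 CPM in KO at day 14. At day 0 they summed to 1079 to 1349 CPM in WT and 895 to 1291 CPM in KO. Of the 8 markers 6 were lower in KO at each day, none was called or at 0, and their part in the values of Myom3 was not tested.

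Rhd, the Rh blood group gene, was below 1 CPM in every library and had log2 differences of -0.47 (SE 0.90) and 0.40 (SE 0.59). All 8 erythroid markers tested were higher in KO at day 14, with a median of 0.53 and sums of 7738 to 31870 CPM against 6851 to 13170 CPM in WT. At day 0, 4 of 8 were higher. Their part in the values of Rhd was not tested. Pdik1l, a protein kinase gene, had 0.15 and 0.23, and Maco1 had -0.03 and -0.15. Tmem50a, Nipal3, Fuca1, a lysosomal fucosidase gene, Lypla2, a thioesterase gene, and Ncmap lay between -0.11 and 0.13 at both days.

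**Figure D3:**
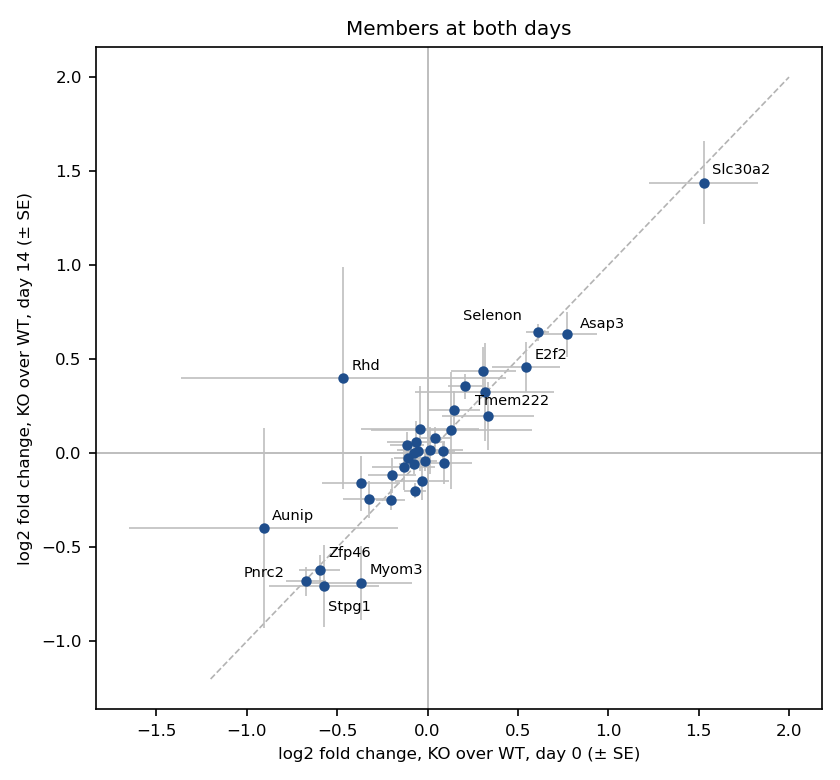
Log2 fold change of KO over WT at day 0 (x axis) against day 14 (y axis) for the 35 listed genes, with bars for ± SE and a dashed line of equal values. Most genes lie near the line, 28 of 35 have the same sign at both days, and Rhd and Aunip, both below 1 CPM, have the widest bars.

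The day 0 and day 14 comparisons share no library, and the plot of both days shows that 28 of the 35 genes (80.0%) had the same sign in both, beside 56.9% of all genes tested. Signs of genes with differences near 0, such as Srrm1 and Rsrp1, turned under some other settings. The same direction without overlap at both days was found for the 6 genes shown above, beside 0.251% of all genes, and no gene of the list stood apart in opposite directions. The list was chosen with both days known, so this describes the choice. The difference between the KO values of the days was 0.04 (SE 0.08, log2) for Selenon, -0.09 (SE 0.38) for Slc30a2, -0.14 (SE 0.21) for Asap3 and 0.15 (SE 0.12) for Tmem222. It was -0.01 (SE 0.13) for Pnrc2 and -0.03 (SE 0.14) for Zfp46. By edgeR 0 of 35 had an adjusted p under 0.05 for this difference, and 0 had an unadjusted p under 0.05, beside 0.0% and 4.55% of all genes. DESeq2 also called 0 of 35 (0.046% of all genes). This difference is built from the KO against WT values known when the list was chosen. Its counts therefore describe the choice too and do not test whether the KO values held between the days.

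The change from day 0 to day 14 was not used to choose the genes and was tested within each genotype. In WT, 0 of 35 genes passed the edgeR test over all genes, where 0.0% of all genes passed. At an unadjusted p under 0.05 the count was 1 of 35, beside 9.06% of all genes. In KO the counts were 0 of 35, where again 0.0% of all genes passed, and 1 of 35 unadjusted, beside 9.05%. DESeq2 called 0 of the 35 in either genotype, where it called 110 genes (0.562%) in WT and 97 (0.496%) in KO. limma-voom also called 0, beside 0.00511% of all genes in WT and 0.0% in KO.

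The day differences were small. They ran from -0.51 to 0.31 (log2) in WT and from -0.37 to 0.75 in KO, with the ends of the KO range held by Stpg1 and Rhd, both scarce genes. The median absolute difference was 0.08 in WT, beside 0.10 over all genes, and 0.10 in KO, beside 0.13. Among the 6 genes shown, the WT difference was 0.00 (SE 0.05) for Selenon, -0.10 (SE 0.25) for Slc30a2, 0.09 (SE 0.13) for Asap3, -0.03 (SE 0.07) for Tmem222, 0.01 (SE 0.08) for Pnrc2 and 0.11 (SE 0.08) for Zfp46. A difference that missed the threshold does not show that the days were equal.

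The exact permutation test over libraries, two-sided, gave an unadjusted p under 0.05 for 1 of the 35 genes in WT. That was Hmgn2, with 58.3 ± 4.79 CPM (SD, n = 4) at day 0 and 48.3 ± 3.20 CPM (SD, n = 6) at day 14 (exact permutation p = 0.019; edgeR adjusted p over all genes = 0.227). Hmgn2 has processed copies elsewhere in the genome, so its counts are uncertain. In KO, 2 against 5 libraries cannot go below p = 0.0952 in this exact test, and no gene could pass.

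**Figure D4:**
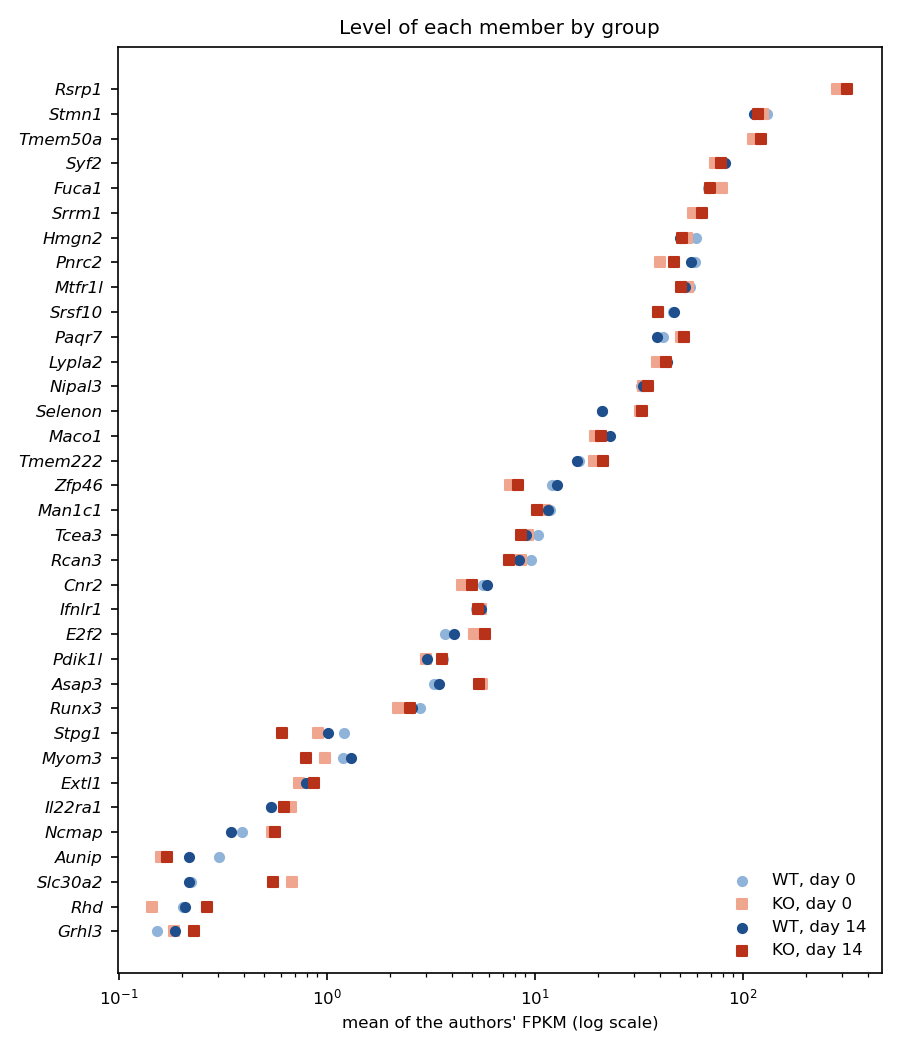
Mean of the authors' FPKM for each of the 35 genes (rows, ordered by WT at day 0) on a log axis, with circles for WT and squares for KO, pale for day 0 and dark for day 14. Group means span from 0.145 FPKM for Rhd to 317 FPKM for Rsrp1. WT and KO markers part for Selenon, Slc30a2, Asap3, Zfp46, Tmem222 and E2f2. They also part at 1 or both days for other genes, among them Pnrc2, Stpg1, Myom3, Ncmap and Aunip.

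Per length, the list spans scarce and abundant genes. In the plot of FPKM by group, WT at day 0 ran from 0.152 FPKM for Grhl3 to 283 FPKM for Rsrp1, and the 6 genes shown above were scattered through that range. Pnrc2 averaged 58.8 FPKM there, Selenon 20.97, Tmem222 16.3, Zfp46 12.1, Asap3 3.29 and Slc30a2 0.222 FPKM. Next to each other in that order, Hmgn2 (59.5 FPKM), Pnrc2 and Mtfr1l (55.7 FPKM) did not differ by more than the SD of Pnrc2.

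Other genes that lie among or near the 35 were counted as background to position. Between Tmem222 and Zfp46, 36 further genes were tested, and 0 were called at either day, beside 0.0256% and 0.107% of all genes. Of the 36, 13 stood apart at day 0 (9 higher and 4 lower in KO), where 18.0% of all genes did. At day 14 it was 1, where 0.977% did. The same sign at both days was found for 26 (72.2%), beside 56.9% of all genes. Within 10 Mb of Clic4, 273 tested genes were neither listed nor Clic4, and 1 was called. That was Rsc1a1, 6.41 Mb after Clic4, with 0 counts in both KO libraries at day 0 against 1176 counts in WT, but 6.16 CPM in KO and 5.58 CPM in WT at day 14. Cnksr1, a scaffold protein gene of Ras signalling 0.98 Mb before Clic4, was apart at both days, with log2 differences of 0.17 (SE 0.11) and 0.24 (SE 0.07).

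A few unlisted genes in the region had differences as large as those of the list and were picked after their values were seen. Pigv, a gene of GPI anchor synthesis, read 10.9 to 14.1 CPM in WT and 12.4 to 18.3 CPM in KO at day 14, with log2 differences of 0.43 at each day. Trnp1 read 0.0663 to 0.306 CPM in WT and 0.219 to 1.48 CPM in KO at day 14, with 2.09 and 2.31. For Tmem222, Pigv and Trnp1, which all lie more than 1.5 Mb before Clic4, KO replicate 3 at day 14 was the lowest KO library, at 20.8, 12.4 and 0.219 CPM. The same library was not low for Selenon, at 105 CPM among KO libraries of 100.2 to 109.8 CPM. Trnp1 was near the floor, with KO replicate 5 of day 14 at 0.297 CPM. Id3, an unlisted gene 0.87 Mb after Clic4 picked in the same way, was lowest in KO replicate 5 at day 14, at 99.2 CPM. Libraries of other unlisted genes more than 1.5 Mb before Clic4 are not given here. The cause of these library differences was not tested.

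Genes that work with members of the list, but lie elsewhere, were counted from lists written from general knowledge with earlier results known. Of 21 tested selenoproteins other than Selenon, 0 were called at either day, with medians of 0.06 at day 0 and 0.04 at day 14. Of 17 genes of decapping and nonsense-mediated decay, the processes in which Pnrc2 acts, 0 were called, 9 were lower in KO at day 0 and 15 at day 14, with medians of -0.01 and -0.05. Of 6 tested zinc exporters besides Slc30a2, 0 were called, with medians of 0.02 and -0.02. Of 11 Arf GTPase-activating proteins related to Asap3, 0 were called, with medians of -0.05 and -0.11, and of 12 tested SR splicing factors besides Srsf10 and Srrm1, 0 were called, with medians of -0.02 and -0.10. The 4 tested RUNX genes and cofactors, the 9 genes of calcineurin signalling and the 9 tested genes of the interleukin 22 and type III interferon pathway also held 0 called genes. Lower in KO at day 14 were 11 of 12 SR splicing factors, 9 of 11 Arf GTPase-activating proteins and 8 of 9 calcineurin genes. So were 6 of 9 interleukin 22 and interferon genes, 4 of 6 zinc exporters, 3 of 4 RUNX genes and 7 of 21 selenoproteins. Over all genes tested it was 9721 of 19557. The lean of the decapping list was thus not particular to it. The genes of these lists with the lowest p were Smg8 (log2 -0.17 at day 14, edgeR adjusted p = 0.394) and Nfatc1 (-0.24 at day 14, edgeR adjusted p = 0.39).

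The ratio of CPM to the authors' FPKM gives a length, in kb, that the authors' isoform estimates imply for a gene. It is the length used in the FPKM and need not be the full transcript length. It could be followed for 26 of the 35 genes with at least 1 FPKM and 20 counts in every library. It moves when the mix of long and short isoforms assigned to a gene moves. By limma over 13436 genes, 0 of the 26 passed at day 0 or day 14 for KO against WT, where 0.00744% and 0.0298% of all genes passed, and 2 and 3 did so at an unadjusted p under 0.05, beside 5.02% and 4.96%. From day 0 to day 14, 0 of 26 passed in WT and 0 in KO, beside 0.0% and 0.0223% of all genes, and 0 and 2 unadjusted, beside 4.15% and 14.4%.

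The implied length of Pnrc2, whose FPKM and CPM differences were unequal, was 1.43 ± 0.160 kb (SD, n = 4) in WT and 1.33 ± 0.324 kb (SD, n = 2) in KO at day 0, and 1.48 ± 0.157 kb (SD, n = 6) in WT and 1.13 ± 0.163 kb (SD, n = 5) in KO at day 14. At day 14 the log2 difference was -0.40 (SE 0.12), and the libraries overlapped. Asap3 stayed within 4.02 to 4.06 kb in every library, Selenon within 3.15 to 3.27 kb and Zfp46 within 2.75 to 3.50 kb. The day 14 differences of Selenon and Zfp46 were 0.01 (SE 0.01) and 0.00 (SE 0.05). The KO values of Tmem222 at day 14 (1.13 to 1.17 kb) lay below WT (1.19 to 1.21 kb), a log2 difference of -0.05 (SE 0.02).

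**Figure D5:**
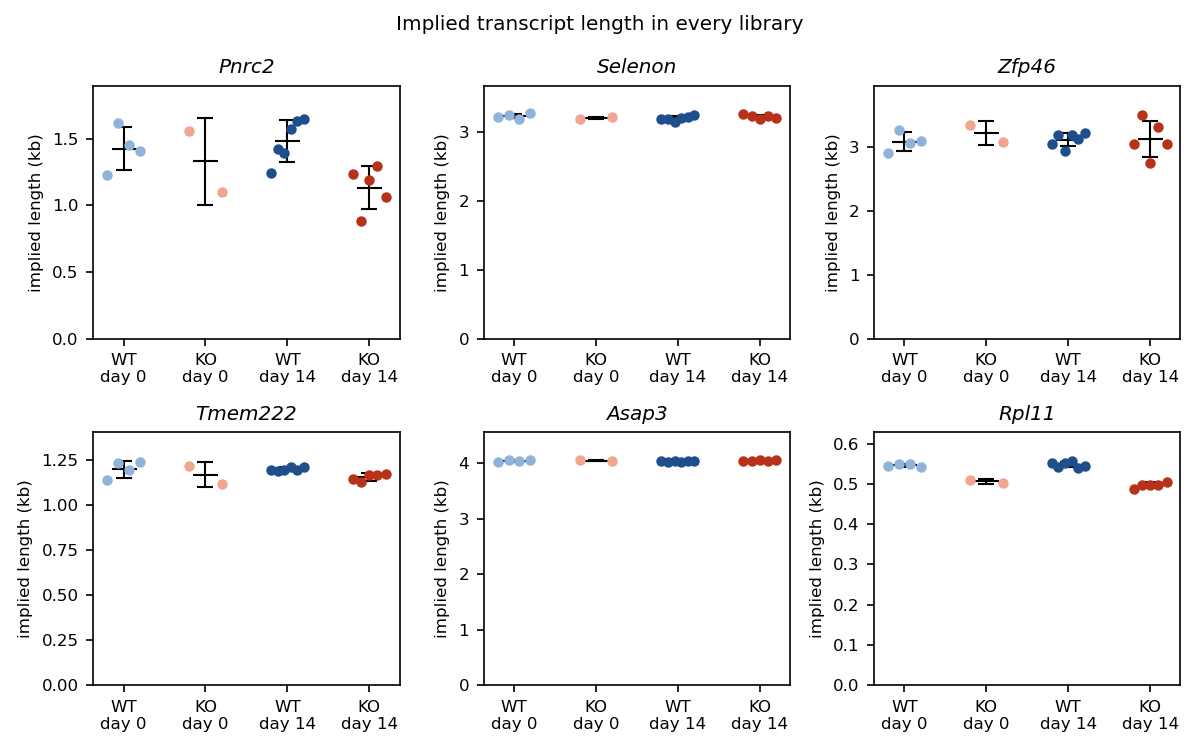
Implied length in kb (CPM over the authors' FPKM) in each of the 17 libraries for 5 listed genes and for Rpl11. Axes start at 0, with 1 point per library and bars for the group mean ± SD. Each KO library lies below all WT libraries for Rpl11, the Pnrc2 libraries spread between 0.882 and 1.64 kb, and Selenon and Asap3 are flat.

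The plot of implied length adds an unlisted neighbour, named because this measure called it. Rpl11, a ribosomal protein gene 0.76 Mb after Clic4, had an implied length of 0.546 ± 0.00372 kb (SD, n = 4) in WT and 0.506 ± 0.00611 kb (SD, n = 2) in KO at day 0, and 0.548 ± 0.00643 kb (SD, n = 6) and 0.497 ± 0.00655 kb (SD, n = 5) at day 14. The log2 difference was -0.11 at day 0 (limma adjusted p = 0.0276) and -0.14 at day 14 (limma adjusted p = 1.37e-05). Its summed CPM hardly differed, with log2 values of -0.06 and -0.03, and its many processed copies in the genome make its counts uncertain.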

How the data were processed

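The authors deposited 1 table of expected counts per library and a joint table of FPKM. The file headers do not state the unit of the counts; values that are not whole in 13.9 to 17.1% of genes fit expected counts, which were rounded before testing. Per the submitters' processing notes, STAR 2.5.3, RSEM 1.3.0 and limma 3.38.3 were used with build mm10; the annotation release, strand setting and filters are not given in the sources used here. All columns were matched to labelled samples.

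Genes were filtered by group with filterByExpr, which left 19557 of 54146, and TMM factors ran from 0.977 to 1.01. A single quasi-likelihood model (edgeR 4.0.16) held all 17 libraries in 4 groups (common biological coefficient of variation 0.152). Its p-values were adjusted by Benjamini-Hochberg over all genes, with a threshold of 0.05, two-sided. Log2 differences and SE come from this fit, and CPM are TMM-scaled. Alternatives were DESeq2 1.42.0, limma-voom (limma 3.58.1, R 4.3.3), limma on log2(FPKM + 1) and log2(FPKM + 0.1), other filters, and each library left out. Implied length was tested with limma on log2(CPM / FPKM) after centring each library on its median. The CPM in this ratio were scaled by library totals without TMM factors. The code was tested on simulated data. Coordinates are from GENCODE M21 (GRCm38, the assembly mm10 names) and promoters from RefSeq GRCm38.p6. In the files 2 members bear older symbols (Sepn1 for Selenon, Tmem57 for Maco1).

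Members and lists were chosen with earlier results of these data known, and the implied length was added after results were seen. Every library is given for members called in any comparison or non-overlapping at both days in 1 direction, and for the nearest member on each side; unlisted genes of the region are named when called, or apart at both days, with at least 1 CPM. Of the genes called by implied length, 1 is not reported here.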

Additional observations from a re-analysis of the deposited data

Results flagged for a closer look

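In 105 groups of 4 to 6 libraries, 7 values lay far from the others of their group by Dixon's ratio; chance alone flags about 1 group in 20. Of these, 3 came from WT replicate 6 at day 14: Paqr7 at 103.4 CPM (others 64.3 to 78.4), Myom3 at 4.893 CPM (others 2.58 to 3.39) and Aunip at 0.4417 CPM (others 0.118 to 0.232). KO replicate 1 at day 14 was low for Pdik1l, at 9.672 CPM (others 12.7 to 13.6), and for Mtfr1l, at 88.76 CPM (others 94.5 to 96.6). Stpg1 stood high in WT replicate 4 at day 14, at 2.415 CPM (others 1.49 to 1.77). Lypla2 stood low in WT replicate 1 at day 14, at 54.41 CPM (others 59.6 to 60.7).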

How the results depend on the processing

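The count of listed genes called KO against WT at day 0, 2 by edgeR, was 1 with limma-voom, 5 with DESeq2, and 1 with both log2(FPKM + 1) and log2(FPKM + 0.1), where 29 of the 35 reach the filter. At day 14, 6 by edgeR, it was 3 with log2(FPKM + 1) and 3 with log2(FPKM + 0.1), 4 with limma-voom and 8 with DESeq2. Leaving out 1 library in turn gave 1 to 3 at day 0 and 4 to 6 at day 14, and 0 for both day changes and for the difference of the KO values. Asap3 at day 14 was lost without any library other than WT replicate 1 and KO replicate 5 of day 14, Tmem222 at day 14 in 11 of 17 such fits, and Pnrc2 at day 0 in 9, among them both fits without 1 KO library of that day. Selenon at both days and Pnrc2, Slc30a2 and Zfp46 at day 14 kept their calls in all 17. The genes were chosen with these KO against WT values known, so a kept call describes the choice and is no test of it. The day 14 calls of Pnrc2 and Asap3 were lost with log2(FPKM + 1), where Slc30a2 did not reach the filter. Those of Tmem222 and Asap3 were lost with limma-voom and with a fit of only the groups compared. Of the called values 0 changed sign under these settings, while differences of genes not called did in some, among them Srrm1, Tmem50a and Rsrp1 at day 14 and Pdik1l and Rhd, whose signs should not be relied on. The causes were not tested. No paired analysis was possible because the labels give the groups no shared replicate numbers. With 2 KO libraries at day 0 and counts near or below 1 CPM, differences of Slc30a2, Rhd, Aunip, Grhl3 and Ncmap are imprecise.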
